A study of Mus musculus with 14 samples.

Results

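Toll-like receptors and the LPS co-receptor Cd14 were followed through both experiments of the series, as the rows of the 2 count tables for Tlr1, Tlr2, Tlr3, Tlr4, Tlr6, Tlr7, Tlr8, Tlr9, Tlr13 and Cd14, 10 of the 55367 genes listed. These genes were chosen by name, with earlier results of these data known. All libraries came from wild-type mouse marrow from which cells bearing mature lineage markers had been removed (Lin- cells), and these were transduced with lentivirus and kept in medium with SCF, IL6 and IL3. The first experiment used virus that carried luciferase as a control (3 libraries) or SETBP1-D868N (3 libraries), a mutant form of the nuclear protein SETBP1 found in leukemia. In the second experiment every culture carried SETBP1-D868N and was kept for 4 days with the solvent DMSO (4 libraries) or with 2.5 µM PF-9363 (4 libraries), an inhibitor of the MYST family of histone acetyltransferases, so DMSO cells are mutant controls and no library there lacks the mutant. The virus adds the mutant to cells that keep their own Setbp1, and neither the promoter that drives it nor the share of transduced cells is given in the sources used here. The labels number the libraries of a group as replicates without saying whether they came from separate cultures or animals, so p-values measure only the spread between these libraries, which may be technical.

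Toll-like receptors are transmembrane sensors of microbial molecules on macrophages, dendritic cells, granulocytes and some marrow progenitors. Tlr4, Tlr2, Tlr1 and Tlr6 sit on the cell surface: Tlr4 responds to lipopolysaccharide (LPS) handed over by Cd14 and bound by Ly96 (MD-2), and Tlr2 pairs with Tlr1 or Tlr6 to recognise bacterial lipopeptides. Tlr3, Tlr7, Tlr8, Tlr9 and Tlr13 act in endosomes on nucleic acids, namely double-stranded RNA, single-stranded RNA (Tlr7 and Tlr8), unmethylated CpG DNA and bacterial ribosomal RNA. Except for Tlr3, which uses Ticam1, they signal through the adaptor Myd88 and IRAK kinases to NF-kB and to interferon regulatory factors, and so induce cytokines such as Tnf and Il1b.

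The DNA before the start of 5 of these genes is shown, because Tlr1 and Tlr6 are neighbouring paralogs whose transcripts moved apart and because Tlr2, Tlr9 and Tlr13 fell by like amounts with SETBP1-D868N. Windows from 250 bases before to 50 bases after the start come from RefSeq, build GRCm38.p6. Of the 10 genes, 7 had such a window, 9 windows in all; Cd14, Tlr4 and Tlr7 had no entry. Each sequence below is the stretch of the window before the start that holds no annotated exon, 5′ to 3′ on the strand of the gene. It lies at chr5:64933564-64933808 on the minus strand for Tlr1, at chr3:83841768-83841858 on the minus strand for Tlr2, at chr5:64960098-64960298 and chr5:64959167-64959416 on the minus strand for the outer and inner start of Tlr6, at chr9:106222348-106222597 on the plus strand for Tlr9 and at chrX:106143025-106143203 on the plus strand for Tlr13. Capitals mark matches, on either strand, to GAGGAAG (a core bound by the myeloid factor PU.1). They also mark GAAA, any 2 bases, GAAA (the interferon-stimulated response element) and TTGCNNCAA. The last was searched for C/EBP but is not its standard site, so its matches are not read as C/EBP sites. GGG, any 2 bases, TTTCC (a form of the NF-kB site) was searched as well.
Tlr1: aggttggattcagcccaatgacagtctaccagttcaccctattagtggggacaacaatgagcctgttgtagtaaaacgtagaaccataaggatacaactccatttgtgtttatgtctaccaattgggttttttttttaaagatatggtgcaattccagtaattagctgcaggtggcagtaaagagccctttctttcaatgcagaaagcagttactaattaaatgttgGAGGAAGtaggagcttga
Tlr2: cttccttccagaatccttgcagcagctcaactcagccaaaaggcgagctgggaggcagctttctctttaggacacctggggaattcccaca
Tlr6 outer: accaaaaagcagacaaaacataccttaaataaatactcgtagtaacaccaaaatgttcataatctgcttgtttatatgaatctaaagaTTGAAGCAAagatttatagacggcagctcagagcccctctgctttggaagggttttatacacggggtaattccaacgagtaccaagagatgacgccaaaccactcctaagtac
Tlr6 inner: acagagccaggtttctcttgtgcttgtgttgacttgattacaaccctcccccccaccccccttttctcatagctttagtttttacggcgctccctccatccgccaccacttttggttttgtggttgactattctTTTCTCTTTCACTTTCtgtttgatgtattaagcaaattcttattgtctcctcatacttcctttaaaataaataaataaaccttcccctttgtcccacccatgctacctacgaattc
Tlr9: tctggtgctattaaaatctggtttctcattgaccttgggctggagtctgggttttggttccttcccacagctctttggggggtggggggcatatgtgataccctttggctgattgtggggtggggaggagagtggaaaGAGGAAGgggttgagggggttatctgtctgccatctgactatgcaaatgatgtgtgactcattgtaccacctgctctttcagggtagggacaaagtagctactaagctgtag
Tlr13: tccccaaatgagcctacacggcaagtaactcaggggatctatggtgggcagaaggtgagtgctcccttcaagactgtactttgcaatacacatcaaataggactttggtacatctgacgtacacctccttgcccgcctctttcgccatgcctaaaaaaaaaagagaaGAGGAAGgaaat

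GAGGAAG was found in the windows of 3 of the 7 genes, Tlr1, Tlr9 and Tlr13, and in 13.6% of all 32851 mouse windows of the same length. Tlr9 held 2 matches, 1 of them in the 50 bases after the start and not shown. The interferon-type motif was found in 1 gene, Tlr6, where 2 overlapping matches form the run of capitals before its inner start (3.44% of all windows), and TTGCNNCAA in 1 gene, again Tlr6, before its outer start (2.08%). The string searched for NF-kB was found in 1 gene, Tlr3 (1.63%). The windows of Tlr2 and Tlr8 held none of the 4 strings as written, and other forms of these sites were not searched. The matches describe the sequence only.

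The first experiment held 60147266 to 68730322 counts per library and the second 7083731 to 10359093, so a count of 0 allowed up to 0.0436 to 0.0499 CPM (counts per 1000000 counts of the library) and 0.290 to 0.424 CPM, for counting error only. Values below are CPM scaled by TMM, a normalization to the bulk of genes, and each experiment was scaled and tested on its own. A gene was called where edgeR's quasi-likelihood test gave a Benjamini-Hochberg adjusted p under 0.05 over all genes tested. Mouse Setbp1, the check of the labels, had 5, 6 and 6 counts with luciferase and 23, 20 and 24 with SETBP1-D868N. The other experiment held 0 to 2 counts in each library. Group means were 0.0892 CPM with luciferase and 0.339 CPM with SETBP1-D868N, then 0.0744 CPM with DMSO and 0 CPM with PF-9363. Setbp1 thus did not show the mutant in the second experiment, though a count of 0 in a library there allowed up to 0.290 to 0.424 CPM. Transcripts used below as neutrophil markers were present in all groups of these Lin- cultures. Group means were at least 2056 CPM for S100a8, 4355 CPM for S100a9 and 1237 CPM for Ltf. The type and maturity of the cells that made them were not tested.

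The first comparison asked how cells with SETBP1-D868N differ from cells with luciferase. Tlr2, Tlr13, Tlr9, Tlr8, Cd14 and Tlr7 fell with SETBP1-D868N, Tlr1 rose, and Tlr3, Tlr4 and Tlr6 did not pass the test. Thus 6 of the 10 genes were called lower and 1 higher, against 22.7% and 24.5% of all 15794 genes tested. The 2 groups did not overlap in 8 of the 10 genes, and in 56.7% of all genes. The median log2 fold change of the 10 genes was −0.47 and that of all genes 0.00. None of the 10 changes reached 2-fold (2.48% of all genes were called at least 2-fold lower and 1.34% at least 2-fold higher), and those of Tlr2, Tlr13 and Tlr9 were the largest, with overlapping intervals.

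On the cell surface, Tlr2, the lipopeptide receptor (chromosome 3, 83836272 to 83841767, GRCm38), stood at 90.4, 96.4 and 97.4 CPM in the 3 luciferase libraries and at 50.7, 54.5 and 54.2 CPM in the 3 SETBP1-D868N libraries. Every mutant library lay far below every control. The log2 fold change was −0.83 (SE 0.0386, edgeR adjusted p 2.21e-08). Cd14, which brings LPS to Tlr4, fell from 29.9, 32.5 and 32.7 CPM to 23.9, 22.4 and 22.7 CPM, again without overlap (log2 fold change −0.46, SE 0.0475, edgeR adjusted p 8.27e-06). Tlr4 itself (chromosome 4, 66827584 to 66930284) had 77.3, 77.9 and 79.4 CPM with luciferase and 79.0, 80.8 and 82.9 CPM with SETBP1-D868N. Its groups overlapped and its log2 fold change of 0.05 was not called (95% interval −0.02 to 0.11, edgeR adjusted p 0.201), though it passed when libraries were scaled by their totals alone (0.098, adjusted p 0.0188).

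Tlr1, a partner of Tlr2, moved the other way from it. It had 10.6, 9.83 and 10.3 CPM with luciferase and 11.9, 13.8 and 12.9 CPM with SETBP1-D868N, so all mutant libraries were above all controls (log2 fold change 0.33, SE 0.0656, edgeR adjusted p 0.00135). Tlr6, the other partner, had 9.72, 9.41 and 10.1 CPM and 9.52, 10.03 and 9.64 CPM. Its groups lay on top of each other, with a log2 fold change of −0.00118 (95% interval −0.13 to 0.13, edgeR adjusted p 0.989) whose sign flipped under library-size scaling (0.048). Tlr1 and Tlr6 are neighbours on chromosome 5, 18.5 kb apart with 0 annotated genes between them. Of the distinct runs of 50 bases in the transcripts, 15.4% of those of Tlr1 and 12.3% of those of Tlr6 also occurred in another gene, the other of the pair among them, so the split of reads between them is uncertain in those stretches. For Tlr2, Tlr7, Tlr8, Tlr9, Tlr13 and Cd14 the share was 0.

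Among the endosomal receptors, Tlr13, the sensor of bacterial ribosomal RNA (chromosome X, 106143204 to 106160493), fell from 35.8, 37.9 and 39.0 CPM to 21.9, 22.7 and 19.1 CPM (log2 fold change −0.82, SE 0.0629, edgeR adjusted p 2.35e-06). Tlr9, the receptor for CpG DNA (chromosome 9, 106222598 to 106226883), went from 12.5, 10.2 and 9.89 CPM to 5.74, 6.36 and 6.63 CPM (−0.80, SE 0.0971, edgeR adjusted p 4.79e-05). In both genes the mutant libraries lay below all controls. Tlr8 fell from 23.7, 22.6 and 24.1 CPM to 15.9, 17.9 and 16.5 CPM (−0.48, SE 0.0520, edgeR adjusted p 1.22e-05). Tlr7, its neighbour 40.6 kb away on chromosome X, fell from 15.4, 14.5 and 14.8 CPM to 12.1, 10.6 and 10.7 CPM (−0.42, SE 0.0613, edgeR adjusted p 1.34e-04). The 2 neighbouring RNA sensors thus changed by similar amounts and without overlap of groups. Tlr3, the receptor for double-stranded RNA, was scarce, with 25 to 46 counts per library. It measured 0.580, 0.706 and 0.724 CPM with luciferase and 0.442, 0.550 and 0.377 CPM with SETBP1-D868N, and missed the threshold (log2 fold change −0.55, SE 0.227, edgeR adjusted p 0.0654). It passed without SETBP1-D868N replicate 2 (−0.712, adjusted p 0.0416), and it shares exon sequence with Gm45542 on the opposite strand.

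**Figure D1:**
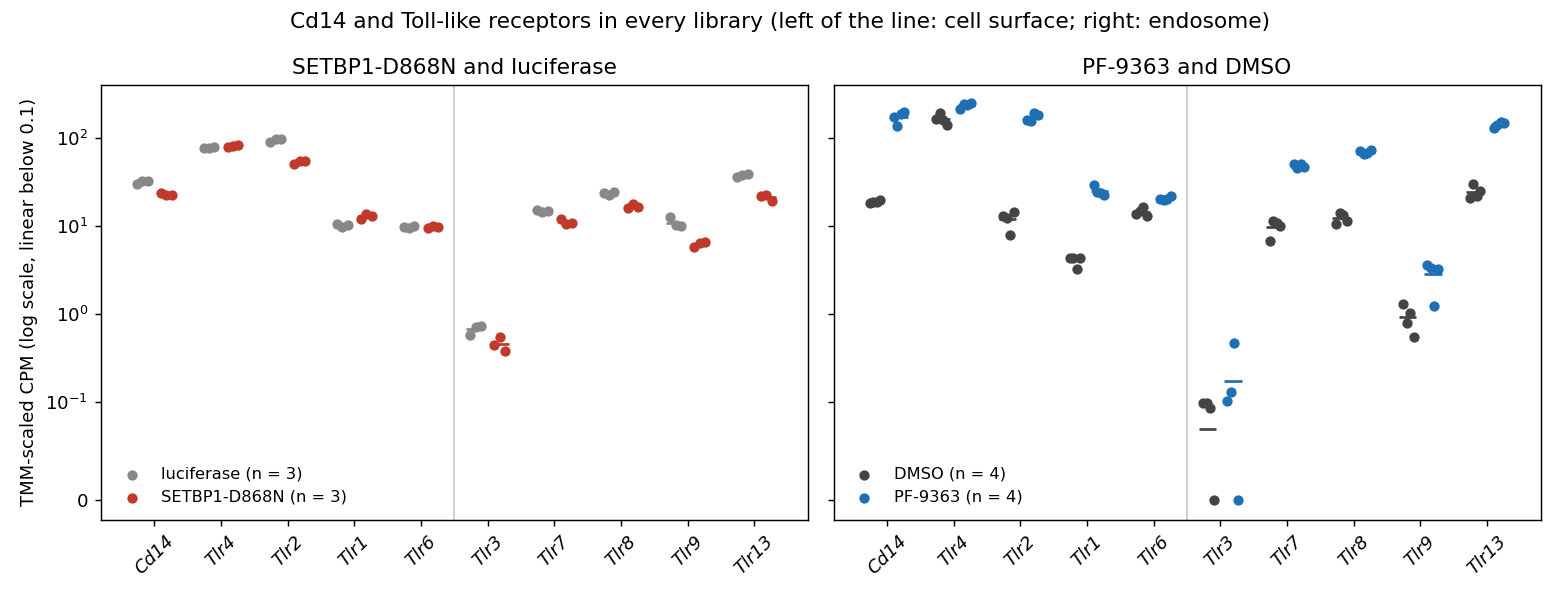
Each point is 1 library and each bar a group mean, in TMM-scaled CPM on a log axis that is linear below 0.1, for luciferase and SETBP1-D868N (left, n = 3 each) and DMSO and PF-9363 (right, n = 4 each). Tlr2 lies at 90.4 to 97.4 CPM with luciferase and at 50.7 to 54.5 CPM with SETBP1-D868N, and at 7.94 to 14.6 CPM with DMSO and 157 to 191 CPM with PF-9363.

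The inhibitor comparison addressed what PF-9363 does in cells that carry the mutant. Tlr1, Tlr2, Tlr4, Tlr6, Tlr7, Tlr8, Tlr9, Tlr13 and Cd14 rose, while Tlr3 had too few counts to be tested. The 9 genes called higher were all those that passed the filter on low counts, and 36.6% of all 13456 genes tested were called higher. At least 2-fold increases were seen for 7 of the 9, against 15.8% of all genes (18.1% were called at least 2-fold lower), and 8 of the 9 had groups that did not overlap, against 70.3%. Their median log2 fold change was 2.50, and that of all genes −0.04. Changes are relative to the TMM scaling: scaling by library totals alone moved the median of all genes by −0.23, and the 9 genes were still called higher, with Tlr4 at 0.293 and Tlr6 at 0.277 in place of 0.53 and 0.51.

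Of the surface molecules, Tlr2 rose most. Its 4 DMSO libraries had 13.0, 12.3, 7.94 and 14.6 CPM and its 4 PF-9363 libraries 158, 157, 191 and 184 CPM. That is a 14.4-fold difference between groups that lay far apart (log2 fold change 3.85, SE 0.136, edgeR adjusted p 5.87e-12). Cd14, a gene on chromosome 18 from 36725067 to 36726798 in GRCm38, went from 18.2, 18.8, 18.9 and 19.9 CPM to 171, 136, 185 and 195 CPM, 9.06-fold (log2 fold change 3.18, SE 0.0993, edgeR adjusted p 6.15e-18). Tlr4 rose far less, from 163, 191, 158 and 142 CPM to 213, 239.9, 239.7 and 249.9 CPM (log2 fold change 0.53, SE 0.0753, edgeR adjusted p 9.08e-07). Every PF-9363 library was still above every DMSO library.

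Tlr1 and Tlr6 again differed in size of change. Tlr1 rose from 4.35, 4.38, 3.27 and 4.35 CPM to 29.1, 24.2, 23.9 and 22.7 CPM (log2 fold change 2.61, SE 0.147, edgeR adjusted p 1.46e-15). Tlr6 rose from 13.6, 14.7, 16.6 and 12.9 CPM to 20.2, 19.6, 20.3 and 22.1 CPM (0.51, SE 0.119, edgeR adjusted p 3.43e-04). With DMSO every Tlr6 library was above every Tlr1 library, and with PF-9363 every Tlr1 library was above every Tlr6 library.

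The endosomal receptors Tlr7, Tlr8 and Tlr13 rose by similar amounts. Tlr7 went from 6.73, 11.5, 10.7 and 10.05 CPM to 50.5, 45.3, 50.9 and 46.6 CPM (log2 fold change 2.31, SE 0.121, edgeR adjusted p 3.49e-16). Tlr8 went from 10.5, 13.9, 13.2 and 11.5 CPM to 71.0, 66.0, 68.3 and 73.3 CPM (2.50, SE 0.0983, edgeR adjusted p 3.39e-19). For Tlr13 the DMSO libraries had 20.8, 29.9, 21.8 and 25.1 CPM and the PF-9363 libraries 129, 139, 153 and 149.6 CPM (2.54, SE 0.0936, edgeR adjusted p 7.24e-18). In these 3 genes no PF-9363 library came near a DMSO library. Tlr9 was scarce, with 6 to 35 counts per library. It measured 1.29, 0.797, 1.03 and 0.543 CPM with DMSO and 3.60, 3.34, 1.24 and 3.25 CPM with PF-9363, and was called higher (1.67, SE 0.368, edgeR adjusted p 1.75e-04) although PF-9363 replicate 3 fell below DMSO replicate 1. Tlr3 had 1, 1, 1 and 0 counts with DMSO and 1, 1, 3 and 0 with PF-9363, so no difference was detectable at this depth.

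**Figure D2:**
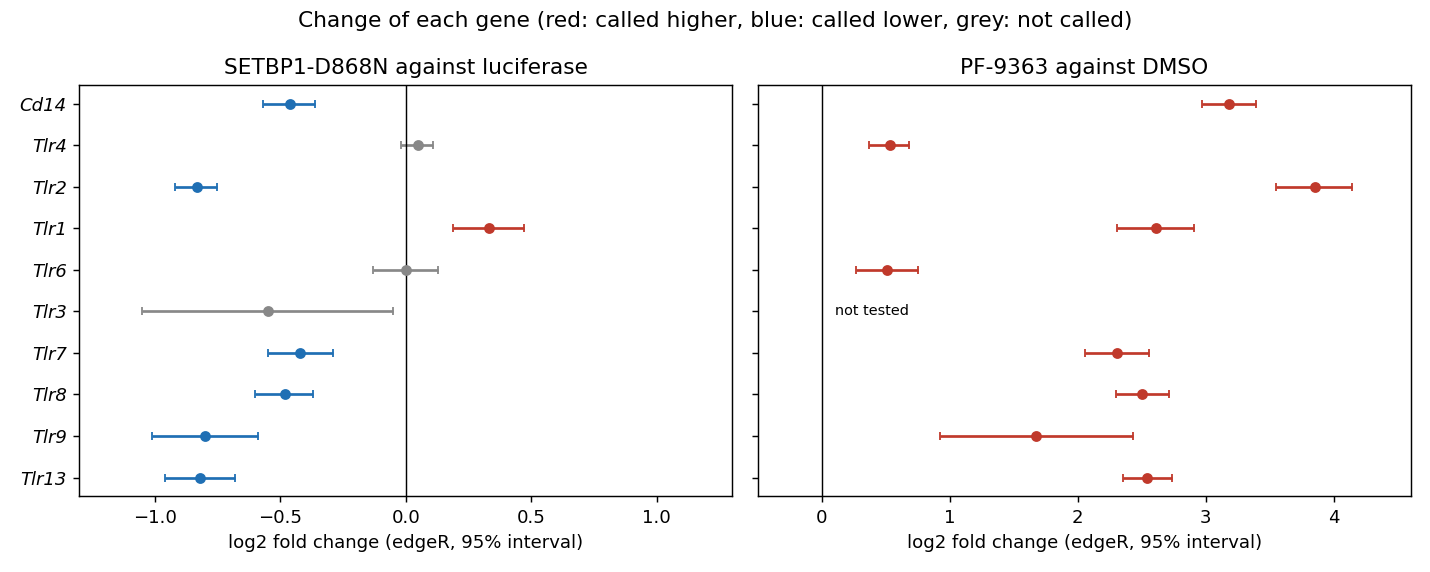
Points are edgeR log2 fold changes with 95% intervals for SETBP1-D868N against luciferase (left, n = 3 each) and PF-9363 against DMSO (right, n = 4 each), on different horizontal scales, with calls in red (higher) and blue (lower). Most genes lie left of 0 in the first panel, with Tlr1 at 0.33 to the right, and all 9 tested genes lie right of 0 in the second, from 0.51 for Tlr6 to 3.85 for Tlr2.

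The 2 experiments share no library, and 9 of the 10 genes were tested in both. Called lower with SETBP1-D868N and higher with PF-9363 were 6 genes: Tlr2, Tlr7, Tlr8, Tlr9, Tlr13 and Cd14. This pattern was shown by 16.8% of all 12376 genes tested in both. Tlr1 was called higher in both comparisons, as were 4.65% of all genes. Tlr4 and Tlr6 were called only with PF-9363, and whether their 2 changes differ was not tested.

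To compare genes within a library, counts were divided by the length of the merged exons in GENCODE M21. With luciferase the order was Tlr2 (31.4 ± 1.25 CPM per kb, SD, n = 3), Cd14 (18.3 ± 0.909), Tlr4 (14.1 ± 0.191), Tlr13 (8.73 ± 0.382), Tlr8 (6.54 ± 0.217), Tlr7, Tlr9, Tlr1, Tlr6 and Tlr3 (0.129 ± 0.0150). The ranges of Tlr7 and Tlr9, and of Tlr9 and Tlr1, overlapped. With SETBP1-D868N, Tlr2 was still first (17.6 ± 0.689), Tlr4 was above Cd14 (14.6 ± 0.356 and 13.3 ± 0.455), and the next pair, Tlr13 and Tlr8, overlapped, as did Tlr7 and Tlr6. With the length of the longest transcript in place of merged exons, Tlr4 came before Tlr2 in this group.

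In the second experiment the order differed more between groups. With DMSO, Tlr4 led at 29.5 ± 3.68 CPM per kb (n = 4), followed by Cd14 at 10.9 ± 0.409. The ranges of Tlr13, Tlr2, Tlr6 and Tlr8 overlapped from each to the next, from 5.66 ± 0.952 to 3.42 ± 0.437. Below them came Tlr7, Tlr1 (1.22 ± 0.163), Tlr9 (0.263 ± 0.0914) and Tlr3. With PF-9363, Cd14 led at 99.2 ± 15.1, then Tlr2 (57.2 ± 5.83), Tlr4 (42.4 ± 2.81), Tlr13 (33.1 ± 2.57), Tlr8 (19.4 ± 0.884), Tlr7 (11.8 ± 0.687), Tlr1, Tlr6, Tlr9 and Tlr3, with no overlap between neighbours down to Tlr9. With the longest transcript, Tlr4 stood before Tlr2 here too (57.8 and 57.2 CPM per kb).

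Ratios between members within a library do not depend on the scaling between libraries. Of counts per kb, Tlr2 to Tlr4 was 2.23 ± 0.0676 (SD, n = 3) with luciferase and 1.21 ± 0.0293 with SETBP1-D868N, and 0.137 ± 0.0412 (n = 4) with DMSO and 1.35 ± 0.108 with PF-9363. Cd14 to Tlr4 was 1.302 ± 0.0528 and 0.913 ± 0.0505 in the first experiment, and 0.376 ± 0.0559 and 2.34 ± 0.354 in the second. Groups did not overlap in either ratio. For Tlr1 to Tlr6 the ratio was 1.17 ± 0.0415 and 1.47 ± 0.0742, then 0.320 ± 0.0699 and 1.36 ± 0.188, also without overlap. Each of the 3 ratios had an exact two-sided permutation p of 0.1 with SETBP1-D868N and 0.0286 with PF-9363, the smallest these designs allow. Adjusted over the 6 tests by Benjamini-Hochberg, these exact permutation p-values were 0.1 and 0.0571, so none passed 0.05, although the direction held in every library. The 3 pairs were picked after the values of the genes were seen.

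**Figure D3:**
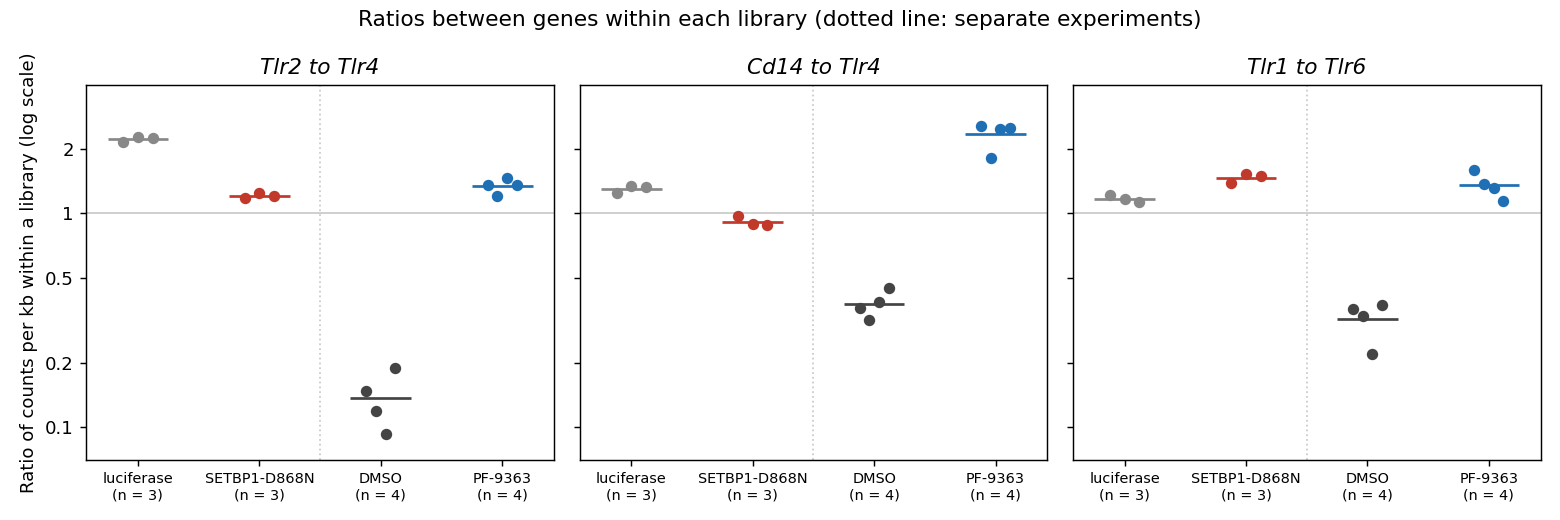
Each point is the ratio of counts per kb of 2 genes in 1 library, on a log axis, with bars at group means (n = 3, 3, 4 and 4). Tlr2 to Tlr4 lies between 0.0925 and 0.189 in the DMSO libraries and between 1.21 and 1.47 in the PF-9363 libraries.

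Other genes of the pathway were taken from a list of 61 genes with 6 roles, also chosen with earlier results of these data known. In the first comparison 25 of 58 tested (43.1%) were called lower and 6 (10.3%) higher, against 22.7% and 24.5% of all genes. In the second, 40 of 51 tested (78.4%) were called higher and 7 (13.7%) lower, against 36.6% and 39.4%. The median log2 fold change of the list was −0.10 with SETBP1-D868N and 0.90 with PF-9363. The pattern lower, then higher was called in 21 of the 51 genes tested in both (41.2%), with 16.8% among all genes.

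Of 11 co-receptors, chaperones and other receptors, 3 rose and 3 fell with SETBP1-D868N (27.3% each). These shares were near those of all genes, 24.5% and 22.7%. Unc93b1, which carries endosomal receptors to their compartment, went from 194 ± 3.72 to 168 ± 4.38 CPM (n = 3 each, log2 fold change −0.21, edgeR adjusted p 9.01e-05) and, with PF-9363, from 122 ± 2.98 to 306 ± 10.6 CPM (n = 4 each, 1.33, edgeR adjusted p 6.55e-18). Ly96, the LPS-binding partner of Tlr4, was not called in the first comparison (2.68 ± 0.329 and 2.40 ± 0.138 CPM, log2 fold change −0.16, edgeR adjusted p 0.327) and rose 7.49-fold in the second, from 1.17 ± 0.207 to 8.77 ± 1.78 CPM (edgeR adjusted p 1.79e-11). Cd180, a Toll-like receptor relative, fell by 0.22 and rose by 1.38 on the log2 scale. Lbp and Hsp90b1 went the opposite way: Lbp, the LPS-binding protein, changed by 0.24 and −1.11, and Hsp90b1, the chaperone gp96 that folds the receptors, by 0.18 and −0.44. With PF-9363, 5 of 7 tested genes of this role rose and 2 fell, against 36.6% and 39.4% of all genes.

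All 4 adaptors tested rose with PF-9363, and 2 of 5 fell with SETBP1-D868N. Among all genes tested these shares were 36.6% and 22.7%. Myd88 stood at 121 ± 4.70 and 103 ± 2.55 CPM in the first experiment (log2 fold change −0.22, edgeR adjusted p 1.89e-04), then at 47.5 ± 2.18 and 127 ± 3.45 CPM in the second (1.42, edgeR adjusted p 3.52e-17). Ticam2, which links Tlr4 to Ticam1, was not called in the first (−0.10, edgeR adjusted p 0.127) and rose by 1.75 in the second. The call of Tirap with PF-9363 (0.19, edgeR adjusted p 0.0412) was lost under library-size scaling, where its value was −0.04, with no filter (0.17), with the replicate block (0.19) and without DMSO replicate 1, 2 or 3 or PF-9363 replicate 1 (0.20, 0.16, 0.18 and 0.17).

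Kinases and ubiquitin ligases had the median nearest 0 of the 6 roles in both comparisons. In the first comparison 5 of 14 were called lower and 1 higher, against 22.7% and 24.5% of all genes. The median was −0.04, and Irak2 had the largest change (−0.45, edgeR adjusted p 6.07e-06). Most of these calls were small and did not hold: under library-size scaling Irak4, Tbk1 and Ikbke (−0.05, −0.06 and −0.06) were lost, leaving Irak2 and Peli1 of the 5. The call of Tab1, the 1 higher gene, was lost with DESeq2 (0.11), the replicate block (0.12) and without luciferase replicate 2 or 3 or SETBP1-D868N replicate 1 or 3 (0.10 to 0.13). Irak4 was also lost with DESeq2, the block and without luciferase replicate 2 or 3 or SETBP1-D868N replicate 2 or 3 (−0.12 to −0.07), and Ikbke without luciferase replicate 2 or 3 or SETBP1-D868N replicate 3 (−0.11 to −0.08). In the second, 8 rose and 2 fell, against 36.6% and 39.4% of all genes, with a median of 0.38. Irak2 rose by 1.17 and Irak4 by 0.62, while Irak1 changed by −0.22 and Traf6, the ubiquitin ligase downstream of them, by −0.83 (82.3 ± 5.41 to 46.5 ± 2.86 CPM, edgeR adjusted p 8.25e-11).

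Among 8 transcription factors, 5 fell with SETBP1-D868N and all 8 rose with PF-9363, against 22.7% and 36.6% of all genes. Relb, an NF-kB subunit, went from 29.7 ± 1.66 to 17.8 ± 0.503 CPM (log2 fold change −0.74, edgeR adjusted p 3.28e-07) and from 4.67 ± 1.08 to 49.4 ± 5.87 CPM (3.40, edgeR adjusted p 1.10e-18). Irf5, which acts downstream of Myd88, went from 125 ± 1.79 to 81.9 ± 5.27 CPM (−0.61, edgeR adjusted p 5.59e-07) and from 42.1 ± 2.01 to 101 ± 4.51 CPM (1.26, edgeR adjusted p 2.03e-15). Rela and Irf3 were not called in the first comparison (−0.03 and 0.04) and rose by 0.90 and 0.22 in the second. Rela was at 0.02 in the first comparison under library-size scaling. The Irf3 call was lost under that scaling (−0.01), with no filter (0.20) and without DMSO replicate 4 (0.17).

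Of the 7 genes grouped as inhibitors, 4 fell with SETBP1-D868N (Nfkbia, Tnfaip3, Nfkbiz and Tollip) and 6 rose with PF-9363. Among all genes tested these shares were 22.7% and 36.6%. The role is the label of the list, and what each gene did in these cells was not tested. The Tollip call in the first comparison was lost under library-size scaling (−0.07, adjusted p 0.0684). Nfkbia, which holds NF-kB in the cytoplasm, changed by −0.38 and 1.73, and Tnfaip3, the ubiquitin editor A20, by −0.43 and 2.20. Sigirr, a decoy-type member of the receptor family, was not called in the first comparison (0.09) and fell from 15.2 ± 2.66 to 4.53 ± 0.360 CPM in the second (log2 fold change −1.75, edgeR adjusted p 1.65e-10).

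Of 16 induced cytokines, chemokines and enzymes, 13 were tested in the first comparison, where 6 fell and 2 rose, and 11 in the second, where 9 rose and 2 fell. Among all genes, 22.7% fell and 24.5% rose in the first, and 36.6% rose and 39.4% fell in the second. Tnf stood at 13.1, 14 and 13.0 CPM with luciferase and 12.2, 10.6 and 11.2 CPM with SETBP1-D868N (log2 fold change −0.24, edgeR adjusted p 0.00773). With DMSO it had 6.14, 4.88, 7.29 and 6.34 CPM and with PF-9363 51.0, 51.8, 48.5 and 48.8 CPM, groups that lay far apart (3.02, edgeR adjusted p 2.46e-19). Il1b changed by −0.62 and 2.33, Il6 by −0.46 and 1.89. Nos2 and Il12a were the exceptions to the rise with PF-9363. Nos2, the inducible nitric oxide synthase, fell from 1.94 ± 0.133 to 0.572 ± 0.161 CPM in the first comparison and from 10.2 ± 5.27 to 0.317 ± 0.284 CPM in the second (−4.90, edgeR adjusted p 2.95e-05). Il12a, a subunit of IL-12, rose from 2.49 ± 0.0706 to 3.55 ± 0.261 CPM and then fell from 3.66 ± 0.661 to 0.427 ± 0.406 CPM (−3.08, edgeR adjusted p 1.41e-07). Ifnb1 and Cxcl1 had 0 counts in all 8 libraries of the second experiment.

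**Figure D4:**
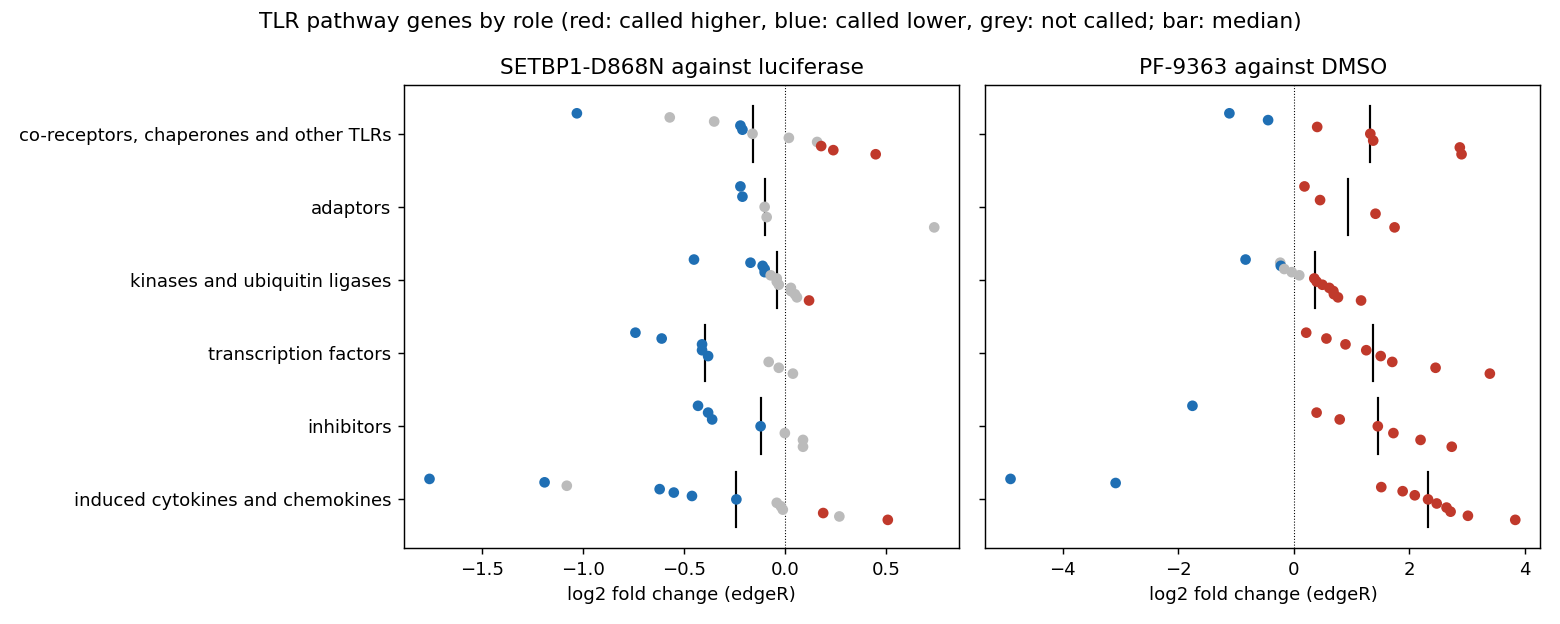
Each point is the edgeR log2 fold change of 1 tested gene of the pathway list, by role, for SETBP1-D868N against luciferase (left) and PF-9363 against DMSO (right), with red for called higher, blue for called lower, grey for not called and a bar at the median. With PF-9363 the median is 0.38 for kinases and ubiquitin ligases and 2.33 for induced cytokines and chemokines, where Nos2 lies at −4.90.

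Markers of several cell types changed in the same libraries. Of all genes tested, 22.7% were called lower and 24.5% higher with SETBP1-D868N. With PF-9363 these shares were 39.4% and 36.6%. They are the base for every count of markers below. Of 12 macrophage and monocyte markers, 11 fell and 0 rose with SETBP1-D868N, and their summed level was 1698 to 1717 CPM with luciferase and 1291 to 1343 CPM with the mutant. With PF-9363, 10 rose and 2 fell, and the sum was 2384 to 2553 CPM with DMSO and 3643 to 4117 CPM with the inhibitor. Single genes carried much of these sums: Ly6c2 and Ccr2 with DMSO (means of 1203 and 772 CPM) and Mrc1 with PF-9363 (2076 CPM). The markers that fell were Ly6c2 and Ccr2 of monocytes (log2 fold changes −1.97 and −2.53), while Adgre1, which encodes F4/80, rose by 2.62 and Mrc1, the mannose receptor, by 3.17. Mast cell and basophil markers summed to 5061 to 5293 CPM with luciferase and 4635 to 4769.8 CPM with SETBP1-D868N (4 of 10 higher, 6 lower), and to 1116 to 1401 CPM with DMSO and 4595 to 5654 CPM with PF-9363 (9 of 10 higher, 0 lower). Dendritic cell markers summed to 168 to 187 and 148 to 157 CPM (1 of 9 tested higher, 5 lower), then to 67.5 to 75.9 and 162 to 202 CPM (2 of 4 tested higher, 2 lower). Siglech had at most 1 count in any library of the second experiment, DMSO or PF-9363, and was not tested there.

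Neutrophil markers divided by stage in the first comparison but not cleanly in the second. Their sum was 24262 to 25269.9 CPM with luciferase and 15868 to 18326 CPM with SETBP1-D868N, where 8 of 10 fell while Elane and Mpo, granule enzymes made early in granulocyte development, rose by 0.34 and 0.40 on the log2 scale. In the second experiment the sums overlapped, at 17357 to 20582 CPM with DMSO and 16735 to 18150.5 CPM with PF-9363, while single members lay far apart. Elane went from 1450.0 ± 70.4 to 1.74 ± 1.49 CPM (n = 4 each, edgeR adjusted p 2.07e-09) and Mpo from 2315 ± 304 to 6.34 ± 4.03 CPM (edgeR adjusted p 4.05e-07), and Camp fell as well. Ltf, Mmp8 and Cxcr2, expressed later, rose by 1.11, 1.86 and 1.18, but Camp, expressed later too, changed by −2.15. Ngp, S100a8, S100a9 and Retnlg were not called (−0.01, −0.08, 0.15 and −0.18).

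Stem and progenitor markers summed to 566 to 585 CPM with luciferase and 665 to 700.0 CPM with SETBP1-D868N (5 of 10 higher, 5 lower), then to 437 to 470.1 CPM with DMSO and 341 to 364 CPM with PF-9363 (5 higher, 2 lower). Myb, a progenitor transcription factor, rose by 0.82 and then fell from 314 ± 17.8 to 47.6 ± 14.4 CPM, while Kit, which the mast cell list also holds, changed by −0.66 and 1.45. Erythroid markers, carried by Tfrc, summed to 613 to 636 CPM with luciferase and 689.7 to 719 CPM with SETBP1-D868N (4 of 8 tested higher, 0 lower). There Klf1, Epor and Car1 rose by 0.97, 0.65 and 2.17, with no group mean above 5.96 CPM. The sums were 564 to 613 CPM with DMSO and 472 to 556 CPM with PF-9363 (1 of 3 tested higher, 1 lower).

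The B cell list summed to 14.2 to 15.1 and 11.2 to 12.2 CPM, then to 13.1 to 17.7 and 21.3 to 22.6 CPM. In the second experiment Ms4a1 and Ebf1 had 0 counts in all 8 libraries, but Blnk and Cd22 rose (0.901 ± 0.444 to 12.7 ± 0.774 and 0.501 ± 0.174 to 6.76 ± 0.549 CPM) and Cd79b and Vpreb1 fell (7.70 ± 1.65 to 0.0541 ± 0.108 and 5.52 ± 0.456 to 1.90 ± 0.762 CPM). The T and NK cell sum was that of Thy1 almost alone (63.8 ± 8.47 with DMSO and 60.3 ± 20.1 CPM with PF-9363), with Cd3e, Cd3g, Cd8a and Klrb1c at 0 counts in all 8 libraries. Stromal and endothelial markers summed to 426 to 430.2 and 422 to 441 CPM, then to 521 to 561 and 386 to 423 CPM. With bulk RNA, a change in the number of cells of a type and a change in RNA per cell cannot be told apart, and the part of these markers in the receptor changes was not tested.

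The genes whose levels followed each receptor most closely were sought among 9565 genes, as the smallest root mean square difference of centred log2 CPM over the 14 libraries. Cd14 was nearest to Naaa and Plek (0.075 and 0.097), and Usp18 was among the genes nearest to Tlr13 (0.111). Tlr8 was nearest to Slc37a2 and Tnip3 (0.096 and 0.098), Tlr7 to Il4 and Map3k8 (0.098 and 0.112), and Tlr2 to Flrt3 and Bst1 (0.177 each). Tlr1 was nearest to Tmem251 and Stx3 (0.135 and 0.140), and Tlr9 to Slc6a12 and Tagap (at most 0.269). Tlr4 and Tlr6 were nearest to Atp6v0a2 and Kif5b (0.044 and 0.052) and to Scaf8 and Kat2b (0.057 and 0.060). The median difference to all candidate genes was 1.02 for Tlr13, 1.22 for Cd14 and 0.34 for Tlr4.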

How the data were processed

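Per the labels, the authors deposited unnormalized read counts, whole numbers for 55367 gene symbols, in separate tables for the 2 experiments (0 unmapped columns). Build GRCm38 (mm10), STAR and DESeq2 are named in the submitters' processing notes with no role or order; the annotation, counting program and strand handling are not given in the sources used here. Per the labels' protocols, the luciferase experiment used 500 ng of RNA with a Watchmaker mRNA kit, while Novogene made and sequenced the inhibitor libraries from 100 ng.

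Computed here, with R 4.3.3: filterByExpr of edgeR 4.0.16 (minimum count 10, minimum total 15) kept 15794 and 13456 genes. TMM scaling and edgeR's quasi-likelihood test (robust, group as single factor) followed, with Benjamini-Hochberg adjustment over all genes tested. Intervals use the test's degrees of freedom, and standard errors are the log2 fold change over the square root of F. Lengths, positions and overlaps come from GENCODE M21 (GRCm38), matched by symbol.

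The members, the pathway and marker lists and the motifs were chosen with earlier results of these data known. The 10 members, Setbp1 and the pathway list were to be given whatever they showed, and 2 nearest genes per member tested in both experiments, among genes with at least 5 CPM in a group of each. Some genes of these lists are not reported here. Alternatives were RLE or library-size scaling, DESeq2 1.42.0, limma-voom (limma 3.58.1), dropping the filter or requiring a mean count of 10, no robust estimation, the replicate number as a block, the longest transcript and leaving out each library. Same-numbered libraries did not deviate together (r −0.18 to 0.01 over the 7 pairs), so no block was used. Libraries of a group differed by more than sampling noise (chi-square per degree of freedom at least 2.28).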

Additional observations from a re-analysis of the deposited data

Results flagged for a closer look

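In 3 of 20 sets of 4 libraries examined (10 genes in DMSO and in PF-9363), 1 library lay far from the other 3, by a gap of at least 0.851 of the whole range, past Dixon's critical value at the 95% level. Chance marks about 1 in 20 such sets. Tlr1 was at 3.27 CPM (35 counts) in DMSO replicate 3 and at 4.35 to 4.38 CPM (44, 44 and 48 counts) in the others. The gap is thus a few counts, large against the range because the other libraries were nearly level. Without DMSO replicate 3 the log2 fold change of Tlr1 with PF-9363 was 2.511 in place of 2.61. Tlr9 was at 1.24 CPM in PF-9363 replicate 3, the library with the fewest counts in the series, and at 3.25 to 3.60 CPM in the others. Without it the change of Tlr9 was 1.900 (edgeR adjusted p 2.46e-05) in place of 1.67. Tlr3 was at 0 CPM in DMSO replicate 4 and at 1 count in each of the other DMSO libraries, a gap of a single count.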

How the results depend on the processing

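With PF-9363 the count of 9 members higher and 0 lower was the same in all 16 alternatives. With SETBP1-D868N, 6 members were lower in every alternative except without SETBP1-D868N replicate 2, where Tlr3 made 7. The count of 1 higher became 2 under library-size scaling, where Tlr4 passed, and was 1 in every other alternative. Library-size scaling also raised the pathway genes higher with SETBP1-D868N from 6 to 12; that scaling moved the share of higher calls among all genes from 51.9% to 62.1% in the first experiment and from 48.1% to 36.2% in the second. Tlr6, near 0 with SETBP1-D868N, turned positive under library-size scaling (0.048) and without luciferase replicate 3 (0.024), SETBP1-D868N replicate 1 (0.011) or SETBP1-D868N replicate 3 (0.003), its range over single libraries left out being −0.029 to 0.024. With the longest transcript, 2 members changed rank with luciferase (Tlr9 and Tlr1), 2 with SETBP1-D868N and 2 with PF-9363 (Tlr2 and Tlr4 in both). Leaving out 1 library gave 5 to 7 pathway genes higher and 23 to 26 lower with SETBP1-D868N, and 39 to 40 higher and 7 to 9 lower with PF-9363. The replicate numbers are shared only by name, and with the replicate block the counts of members were 1 higher and 6 lower, then 9 and 0, and those of pathway genes 5 and 25, then 39 and 7. Ratios kept their direction without any single library. Depth limits Tlr3 in both experiments and Tlr9 in the second.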

Other observations

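The 2 groups that carry SETBP1-D868N without inhibitor come from different experiments, input amounts and library preparations, so they were not compared by test, and experiment and culture cannot be told apart. Their receptor ratios lay apart all the same. Tlr2 to Tlr4 was 1.18 to 1.24 in the SETBP1-D868N libraries and 0.0925 to 0.189 in the DMSO libraries, and Tlr1 to Tlr6 was 1.39 to 1.53 and 0.219 to 0.374. Cd14 to Tlr4 was 0.878 to 0.971 and 0.315 to 0.449. With PF-9363, Tlr2 to Tlr4 (1.21 to 1.47) and Tlr1 to Tlr6 (1.15 to 1.60) lay within or close to the span of the first experiment, while Cd14 to Tlr4 (1.81 to 2.57) lay above the luciferase libraries (1.24 to 1.34).

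Receptors outside the 10 followed were scarce. Tlr5, the flagellin receptor, fell with SETBP1-D868N from 0.940 ± 0.114 to 0.461 ± 0.0347 CPM (n = 3 each, edgeR adjusted p 9.93e-04), at 28 to 67 counts per library. Tlr11 and Tlr12 were not called (edgeR adjusted p 0.495 and 0.0958), and none of these 3 genes passed the filter in the second experiment. The macrophage marker Fcgr1, an Fc receptor, rose from 0.796 ± 0.247 CPM with DMSO to 25.8 ± 3.74 CPM with PF-9363 (n = 4 each, edgeR adjusted p 1.13e-18), by more than any of the 9 genes tested there.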
